A study of Rattus norvegicus with 5 samples.

Results

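Haemoglobin genes and Alas2, the erythroid enzyme of haem synthesis, were followed in rat parotid gland, the large salivary gland in front of the ear, during the first hour after isoproterenol. The 6 genes were Hbb, Hbb-b1, Hba-a1, Hba-a3, Hbe1 and Alas2, of 13336 genes with a symbol on the Illumina bead array, and each had 1 probe. They were chosen by gene symbol and on their signal on all 5 arrays of these rats, with earlier results known, so every value of these 6 genes below is a description and supports no test.

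The rats were male Sprague-Dawley animals aged 2-3 months. A pair of control rats received normal saline intraperitoneally. The other 3 rats received isoproterenol, an agonist of beta-adrenergic receptors, by the same route, at a dose that the labels give as 20 mg per g body weight, and 1 rat was killed at each of 10, 30 and 60 min. The unit of that dose could not be checked, and the time from saline to death of the controls, the bleeding or perfusion of the animals and how much blood each piece of gland held are not known from the labels. Each array is 1 rat, so a time and a rat cannot be told apart.

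Haemoglobin is a tetramer of alpha-type and beta-type globin chains, each holding a haem group with an iron atom that binds oxygen. Red cell precursors in the bone marrow transcribe the globin genes at very high rates, together with Alas2, which makes the first committed precursor of haem. Circulating red cells of mammals have no nucleus, but the youngest of them, the reticulocytes, still carry globin mRNA. The gland itself is not a site of red cell formation in the adult, and globin signal in a tissue sample is commonly read as a measure of the blood it held.

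In the rat reference assembly (GRCr8), Hbb, Hbb-b1 and Hbe1 lie in the beta globin cluster on chromosome 1, Hba-a1 and Hba-a3 in the alpha globin cluster on chromosome 10, and Alas2 on the X chromosome. RefSeq lists 9 genes and pseudogenes of the beta cluster, 5 of them named on the array, and 6 of the alpha cluster, of which 3 were named. Genes of a cluster resemble one another closely. The probes could therefore catch transcripts of a neighbouring copy, and the values of single adult globins are uncertain for that reason. Probe sequences were not used here.

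The 100 bases just before the annotated transcript start of each globin gene are shown because 4 of these genes moved together across the arrays and Hbe1 did not. All lie on the minus strand and are written 5′ to 3′ in the direction of transcription, from RefSeq (GRCr8). Capitals mark the letters CCAAT, or ATAAA of the TATA region, or CACCC, searched on both strands.
Hbb (chr1:167663722-167663821): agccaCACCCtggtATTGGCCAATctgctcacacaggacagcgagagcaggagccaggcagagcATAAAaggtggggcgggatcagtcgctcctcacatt
Hbb-b1 (chr1:167643521-167643620): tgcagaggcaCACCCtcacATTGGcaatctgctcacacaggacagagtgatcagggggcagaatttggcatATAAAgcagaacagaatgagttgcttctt
Hbe1 (chr1:167696281-167696380): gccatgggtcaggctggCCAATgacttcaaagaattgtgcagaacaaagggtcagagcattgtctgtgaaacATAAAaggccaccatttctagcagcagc
Hba-a1 (chr10:15842581-15842680): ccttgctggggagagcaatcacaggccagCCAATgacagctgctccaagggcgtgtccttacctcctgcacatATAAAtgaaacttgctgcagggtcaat
Hba-a3 (chr10:15816944-15817043): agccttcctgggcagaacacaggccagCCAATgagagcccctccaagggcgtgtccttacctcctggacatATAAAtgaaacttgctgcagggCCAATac

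All 5 windows held CCAAT on at least 1 strand, as did 17.1% of 33469 RefSeq promoter windows of this length. All 5 also held ATAAA, which 18.4% of the windows hold. CACCC was present in the adult beta globins Hbb and Hbb-b1 and in neither Hbe1 nor the alpha globins, against 25.6% of all windows. The letters GATA were in none of the 5 windows and in 27.0% of all windows. The windows of Hba-a1 and Hba-a3 were identical at 85.6% of aligned positions, those of Hbb and Hbb-b1 at 66.4%, and those of Hbb and Hbe1 at 52.1%. These matches describe the letters only.

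The glands carried the identity that their labels give. Amylase (Amy1) stood between 15.05 and 15.12 on the log2 scale on all 5 arrays, near the top of the scale at 15.32, and the water channel gene Aqp5 of acinar cells between 11.98 and 12.17. Between 9095 and 9459 of 22517 probes were above background on each array, which means a detection p-value, the fraction of negative controls that outshine the probe, under 0.01. The tests took in the 10793 probes that reached this on any array. Skeletal muscle markers differed between the controls by a median of -4.90 (control 2 minus control 1), which sets a limit on any gene that muscle also expresses.

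The adult globins were at their lowest in the gland taken 10 min after isoproterenol. Hbb, Hbb-b1, Hba-a1 and Hba-a3 were all above background on all 5 arrays, lay far below both controls at 10 min, closer to them at 30 min, and within or below their range at 60 min.

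Hbb, which encodes an adult beta chain, had intensities of 12874 and 11048 in control 1 and control 2, 1958 at 10 min, 7560 at 30 min and 10175 at 60 min. Only the 10 min gland was far from the others, with 16.4% of the mean control intensity. On the log2 scale after background correction, Hbb stood at 13.54 ± 0.16 (SD, n = 2) in the controls and differed from them by -2.64 ± 0.22 (SE of the fit) at 10 min, which is 6.22-fold lower. The differences were -0.66 at 30 min and -0.23 at 60 min, and control 2 differed from control 1 by -0.22.

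Hbb-b1, a second adult beta chain gene, gave 3392 and 3026 in the controls, 617 at 10 min, 1889 at 30 min and 3279 at 60 min. The 60 min gland lay between the controls and the 10 min gland at 19.2% of their mean. Its log2 value was 11.62 ± 0.12 (SD, n = 2) in the controls, with differences of -2.47 ± 0.21 (SE) at 10 min (5.55-fold lower), -0.78 at 30 min and 0.03 at 60 min. The sign of the 60 min difference turned without control replicate 2, where it was -0.05.

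Hba-a1, an adult alpha chain gene, gave 22212 and 20574 in the controls, 6424 at 10 min, 14842 at 30 min and 15428 at 60 min. All 3 isoproterenol glands lay below both controls, the 10 min gland by most, at 30.0% of the control mean. On the log2 scale the differences were -1.74 ± 0.21 (SE) at 10 min (3.35-fold lower), -0.53 at 30 min and -0.47 at 60 min from a control mean of 14.38 ± 0.08 (SD, n = 2). That control level is within 1 unit of the top of the scale, where array signals respond less to transcript amount.

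Hba-a3, another adult alpha chain gene, gave 676 and 687 in the controls, 192 at 10 min, 415 at 30 min and 627 at 60 min. Its controls were the most alike of the 6 genes, 9.30 ± 0.02 (SD, n = 2) on the log2 scale, and all 3 isoproterenol glands lay below both. The differences were -2.15 ± 0.20 (SE) at 10 min (4.44-fold lower), -0.79 at 30 min and -0.13 at 60 min.

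**Figure D1:**
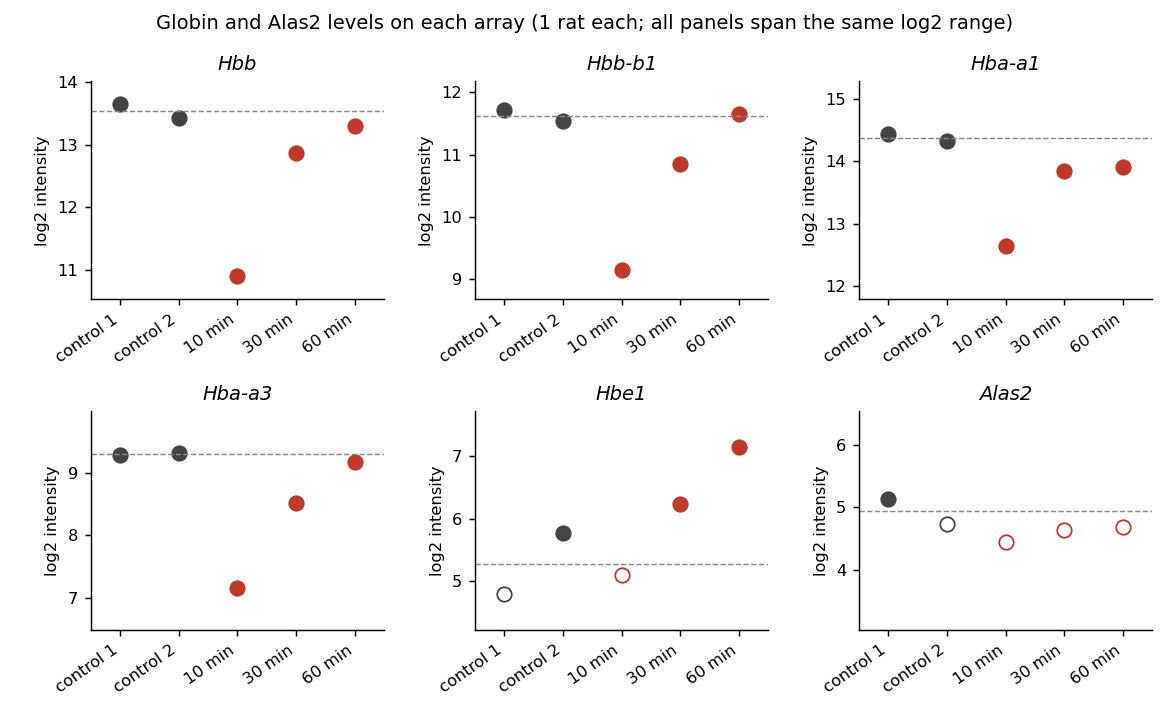
Log2 intensity of Hbb, Hbb-b1, Hba-a1, Hba-a3, Hbe1 and Alas2 on each of the 5 arrays (grey, controls; red, isoproterenol at 10, 30 and 60 min), 1 rat per point, with open circles where the detection p-value was 0.01 or above and a dashed line at the mean of the 2 controls. The 4 adult globins are lowest at 10 min, Hbe1 is highest at 60 min, and Alas2 is above background only in control 1.

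Between 10 and 30 min the adult globins differed by 1.98 (Hbb), 1.70 (Hbb-b1), 1.21 (Hba-a1) and 1.36 (Hba-a3), and between 10 and 60 min by 2.41, 2.51, 1.27 and 2.02, the later gland higher each time. As these are single rats, no course within an animal can be read from them. The order of the arrays was shared at its lower end: 10 min and then 30 min were lowest for all 4 genes. The 60 min gland lay between the controls in Hbb-b1 and below both in the other 3 genes, with differences of -0.47 to -0.13 from the control mean.

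Over the 5 globin genes, Hbe1 included, the median difference from the control mean was -2.15 at 10 min, -0.66 at 30 min and -0.13 at 60 min, beside -0.11 between the controls (control 2 minus control 1). The medians over all 10793 tested probes were 0.03, -0.03 and -0.08. At 10 min, 4 of the 6 genes were at least 2-fold lower than the control mean and outside both controls. Of all tested probes, 201 (1.86%) met that rule. Only 8 tested probes, Hbb itself included, differed by as much as Hbb or more in that direction, 11 as much as Hbb-b1, 22 as much as Hba-a3 and 51 as much as Hba-a1. At 30 min none of the 6 genes was 2-fold lower or 2-fold higher by this rule, with 2.48% and 4.26% of all probes doing so. At 60 min none was 2-fold lower and 1, Hbe1, was 2-fold higher, with 9.06% and 11.9% of all probes. At 10 min none of the 6 was 2-fold higher, beside 0.324% of all probes.

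**Figure D2:**
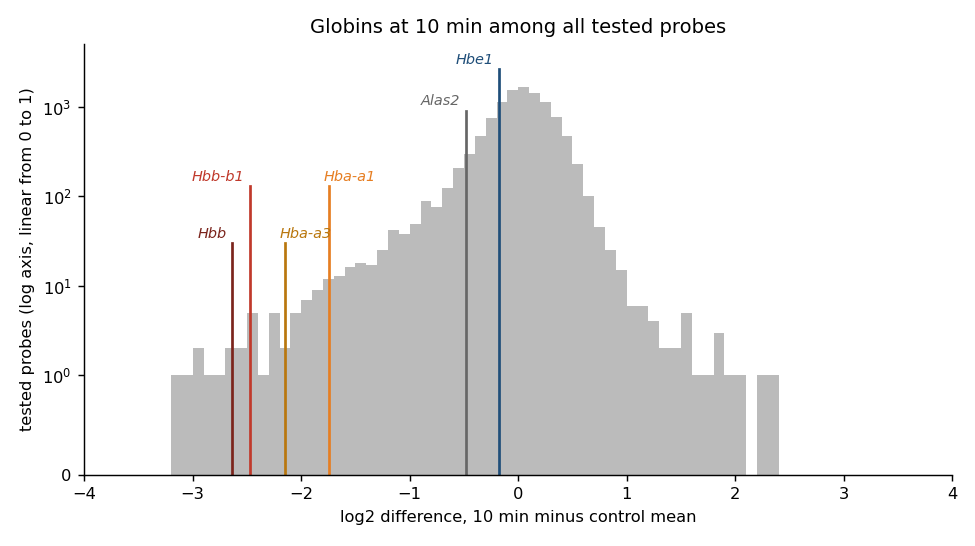
Distribution over 10793 tested probes of the log2 difference between the 10 min gland and the control mean (x axis), with the number of probes on a log axis and coloured lines at the 6 genes; line heights carry no value. Hbb (-2.64), Hbb-b1 (-2.47), Hba-a3 (-2.15) and Hba-a1 (-1.74) lie in the lower tail, while the lines of Alas2 and Hbe1 mark signals within background at 10 min, whose place is not measured.

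In the limma fit across all probes, whose error combines the gap between the 2 controls with a prior shared by every probe, 3 probes (0.0278%) passed an adjusted p of 0.05 at 10 min, 0 (0%) at 30 min and 2634 (24.4%) at 60 min. Unadjusted p was under 0.05 for 655, 2139 and 4538 probes. Of the 6 genes, 0 passed at 10 and 30 min and 1, Hbe1, at 60 min, from which nothing is read since the genes were chosen on these arrays. Comparing the 3 isoproterenol rats together with the controls, limma called 0 of 10793 probes (0%), with 1016 at an unadjusted p under 0.05. The globin median in that comparison was -1.02. It was -0.45 without the 10 min rat and -1.47 without the 60 min rat, so the 10 min gland set most of it.

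Hbe1, an embryonic beta-type globin gene expressed in the yolk sac in rodents, did not share the adult pattern. Its intensity was 76.1 and 103 in the controls, 83.5 at 10 min, 125 at 30 min and 190 at 60 min. The signal was not above background in control 1 and at 10 min, and the 30 and 60 min glands were above both controls. On the log2 scale it stood at 4.80 and 5.76 in the controls, 5.11 at 10 min, 6.24 at 30 min and 7.15 at 60 min. The difference was 0.96 at 30 min, about the gap between the controls (0.97), and 1.87 ± 0.43 (SE) at 60 min, or 3.65-fold. At this dim end of the scale the size of a difference depends on the background correction, and the 60 min value was 1.10 without one and 1.03 on the authors' values.

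Alas2, the erythroid form of 5-aminolevulinate synthase, was close to background throughout. Its intensities were 84.0 and 74.5 in the controls and 65.7, 71.8 and 73.0 at 10, 30 and 60 min. Only control 1 was above background (detection p-value 0.0087), so Alas2 entered the tests through that array alone. The log2 values were 5.13 and 4.74 in the controls and 4.45, 4.63 and 4.68 at the 3 times. No order of the arrays and no fold can be given, because the other 4 arrays were within background.

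Other probes with a like course were sought by distance. The reference was the mean of the 4 adult globin profiles over the 5 arrays, each centred on its own mean, which ranged over 2.31 on the log2 scale. The 4 genes lay 0.08 (Hba-a3) to 0.26 (Hba-a1) from it by root mean square difference over the 5 arrays, Alas2 at 0.70 and Hbe1 at 1.02. Among 1766 named probes that ranged over at least 50% of that, 16 lay within 0.5.

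The nearest was Procr, the endothelial protein C receptor gene, at 0.30, with log2 values of 6.53 and 6.34 in the controls, 4.81 at 10 min, 6.36 at 30 min and 6.25 at 60 min. Its signal at 10 min was within background, so the difference there is given only as at least 2.50-fold lower. Next came the collagen gene Col5a1 (0.35), the tissue factor gene F3 (0.38), Srpx (0.45), the ficolin gene Fcna (0.45), the actin crosslinker gene Flna (0.46), Fkbp7 (0.47), the collagen gene Col6a1 (0.47), the matrix gene Efemp1 (0.48) and the complement gene C1qb (0.48). None of these 10 is in the red cell lists used here, and Col6a1 is in the connective tissue list. Of the red cell lists, the water channel gene Aqp1, at 0.49, was also among the 16. So were Cd74 of the lymphocyte list, at 0.492, and Sparc of the connective tissue list, at 0.495. The opposite course, highest at 10 min, was followed most closely by Cyp24a1 (0.46), Fn3k (0.46), Cldn24 (0.47), Ocm (0.49) and Rassf5 (0.53).

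The Hbe1 course was common among the other probes. Of 1707 named probes that ranged over at least 50% of the range of Hbe1, 257 (15.1%) lay within 0.3 of it, and the closest were the olfactory receptor gene Or8s2 (0.08), the ion channel gene Asic1 (0.08), B3gntl1 (0.09), the interleukin gene Il4 (0.10) and Xpnpep2 (0.10). For Hbb the same count was 0 of 1208, for Hbb-b1 0 of 1426, for Hba-a3 0 of 1992 and for Hba-a1 12 of 2754. For Alas2 it was 1988 of 6852 (29.0%), led by Morc3 (0.05), Cfap141 (0.05), Mcpt9 (0.06), Kcnd2 (0.06) and Tnip2 (0.06). The Alas2 distances rest mostly on signals within background. The distance of 0.3 was the same for every gene, although Alas2 ranged over only 0.68 and Hbb over 2.75. Probes of little change can therefore lie that near Alas2, and its count cannot be set against the others.

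The other genes of the red cell programme gave mixed values. The 7 lists of globin, haem, iron and red cell genes matched 78 genes on the array, 60 of them tested. Of these 60, 8 rose and 5 fell at 60 min by limma, beside the 24.4% of all tested probes that passed, and none passed at 10 or 30 min. With no filter on dim probes limma called none of the 78 at 60 min, with 32 at an unadjusted p under 0.05. The median differences of the 60 were 0.02, -0.05 and -0.15 at 10, 30 and 60 min. Among the genes that rose, Tfrc and Add2 entered the tests only through isoproterenol glands. The counts of single lists at 60 min given below are to be read beside the same 24.4%, which holds rises and falls together.

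Among the other globins, 7 were on the array and 4 tested, and none passed at any time. All 4 had recorded values below the control mean at 10 min, but only Cygb was above background there. The list's medians were -0.65, -0.09 and -0.39 at 10, 30 and 60 min. The 10 min median rests on signals within background, so its size is not measured, and Hba-a2 was within background at the later times too. The beta-type genes Hbg1 and Hbe2 and the neuronal globin gene Ngb were not above background on any array. Hba-a2, a further adult alpha gene, was above background in both controls, at 5.36 and 5.13, and in none of the isoproterenol glands, where it was at least 1.10-fold, 1.12-fold and 1.10-fold lower at 10, 30 and 60 min. Ahsp, which encodes the chaperone of free alpha chains and is an erythroid gene, had log2 values of 5.52 and 5.26 in the controls, 4.48 at 10 min, 5.60 at 30 min and 5.27 at 60 min. It was not above background at 10 min alone, at least 1.21-fold lower there (adjusted p = 0.533 with limma). Cygb, a globin gene of fibroblasts, differed by -0.33, -0.45 and -0.35. Mb, the muscle myoglobin gene, was high in control 1 (8.68) and at 30 min (9.17) and low in control 2 (4.71), as the skeletal muscle genes were. At 10 min it was within background and at least 3.00-fold lower than the control mean, of which 1 of 2 arrays was above background.

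**Figure D3:**
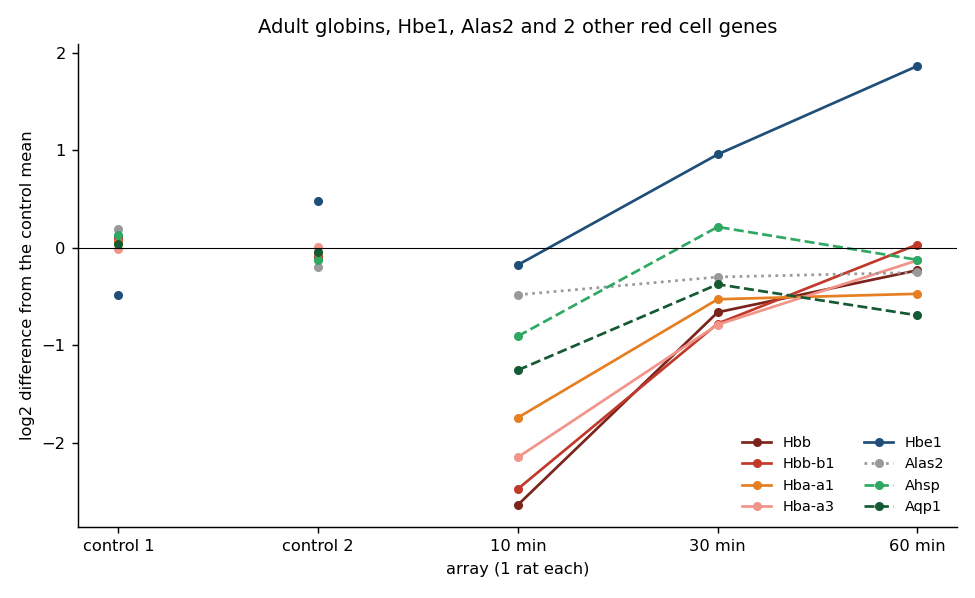
Log2 difference of each array from the mean of the 2 controls for the adult globins (warm colours), Hbe1 (blue), Alas2 (grey, dotted), Ahsp and Aqp1 (green, dashed), 1 rat per point, with lines joining the 3 isoproterenol times. The 4 adult globins differ by -2.64 to -1.74 from the control mean at 10 min, and Hbe1 is 1.87 above it at 60 min. Aqp1 differs by -1.26 at 10 min and Ahsp, within background there, is at least 1.21-fold lower. Both were picked with their values known. Of the 60 tested genes of the red cell lists, 28 lay below the control mean at 10 min, with a median of 0.02.

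Of the haem synthesis genes, 9 of 11 on the array were tested, 1 rose and 1 fell at 60 min, and the list's median differences were 0.11, -0.04 and -0.16 at the 3 times. Fech, the ferrochelatase gene of the last step, stood at 8.08 and 7.76 in the controls, 7.89 at 10 min, 7.68 at 30 min and 6.49 at 60 min, and fell by 1.42 ± 0.24 (SE) at 60 min (adjusted p = 0.0287 with limma). Uros, the uroporphyrinogen III synthase gene, rose by 1.07 ± 0.23 (SE, adjusted p = 0.0342). The mitochondrial glycine carrier gene Slc25a38 differed by -0.75 (adjusted p = 0.0628) and Urod by -0.38. At 10 min Fech differed by -0.03 and Urod by 0.03.

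All 7 iron uptake genes on the array were tested, and 2 rose. The transferrin receptor gene Tfrc cleared background at 60 min only, where it was at least 1.625-fold higher. It entered the tests through that array alone, so nothing is read from its call. Aco1, the iron-sensing aconitase gene, rose by 0.94 ± 0.24 (SE, adjusted p = 0.0471). Slc46a1, a folate and haem carrier gene, and Slc11a2, an iron transporter gene, differed by 0.65 and -0.44 without passing. The Tfrc call was lost with an offset of 50, on uncorrected intensities, on the authors' values and with detection on 2 arrays, and the Uros call on uncorrected intensities and the authors' values.

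The erythroid master regulator genes Gata1 and Klf1, together with Nfe2, Gfi1b, Bcl11a and the erythropoietin receptor gene Epor, were not above background on any array. The other 5 of 11 were tested and none passed. Mybl2 was at least 1.33-fold higher at 60 min, the only array on which it was above background. Stat5a, Ldb1 and Tal1 differed by -0.37, -0.20 and 0.16.

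Among red cell membrane and skeleton genes, 11 of 13 were tested, 2 rose and none fell at 60 min. Add2, a spectrin-actin linker gene, was at least 2.14-fold higher at 60 min. It was above background at 30 and 60 min only and entered the tests through those arrays, so nothing is read from its call. Bsg, the basigin gene, rose by 0.98 ± 0.21 (SE). Tmod1 and Ank1, skeleton genes that muscle also expresses, were high in control 1 (7.80 and 6.32) and at 30 min (7.60 and 6.44) and low on the other arrays. The red cell band 3 anion exchanger gene Slc4a1 was only just above background on all arrays, at 5.29 and 5.10 in the controls, with differences of 0.03, 0.08 and -0.07. At that level a clearly lower signal would be within background and not measured. Aqp1, a water channel gene of red cells and of endothelium, stood at 8.15 and 8.07 in the controls, 6.86 at 10 min, 7.74 at 30 min and 7.42 at 60 min (adjusted p = 0.305 at 10 min with limma). Gypc, a glycophorin gene, differed by -0.75, -0.71 and -0.38. Slc4a1, Aqp1 and Gypc were picked out with their values known. The list's medians were 0.03, 0.09 and -0.07 at 10, 30 and 60 min, and 5 of the 11 tested lay below the control mean at 10 min.

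Of the red cell enzyme and maturation genes, 17 of 20 were tested, 3 rose and 3 fell at 60 min. Hagh, a glyoxalase gene, rose by 3.34 ± 0.53 (SE, adjusted p = 0.0284 with limma), Tent5c, a poly(A) polymerase gene, by 2.20 ± 0.23 and Isca1, an iron-sulphur cluster gene, by 2.06 ± 0.21. Cyb5r3, the methaemoglobin reductase gene, fell by 1.35 ± 0.20 (SE, adjusted p = 0.0284), Tspan33 fell by 0.87 and the mitophagy receptor gene Bnip3l fell by 0.80. At 10 min Hagh differed by -0.27 and Tspan33 by 0.17, with the other 4 between them. The Tspan33 call was lost on the authors' values and when the prior variance followed intensity, and the Bnip3l call with median scaling.

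Of the genes that clear haemoglobin and haem, 7 of 9 were tested and 1 fell. Slc40a1, which encodes the iron exporter ferroportin, was at least 1.79-fold lower at 60 min (adjusted p = 0.0288 with limma) and not above background there. Hmox2 differed by 0.79 (adjusted p = 0.0589) and the ferritin genes Fth1 and Ftl1 by -0.39 and 0.35. The plasma protein genes Hp and Hpx, which bind free haemoglobin and haem, were not above background on any array.

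Markers of other blood and tissue cells were set beside the globins for each gland. Neutrophil markers gave nothing to compare, since 15 of 16 on the array were never above background and the remaining one, Mmp9, differed by 0.01 at 10 min. Of 8 platelet genes 4 were tested and none passed, with medians of -0.20, -0.47 and -0.25. The platelet factor gene Pf4, picked out with its values known, differed by -0.25 at 10 min, Gp5 by -0.15 and Nrgn by 0.21. Gp1bb was above background in the controls only. Lymphocyte markers had medians of 0.23, -0.12 and 0.59 at 10, 30 and 60 min. At 10 min 3 of the 7 tested lay below the control mean, Cd74 among them with -1.05. Of 7 tested lymphocyte markers, Ccr7 rose by 1.90 at 60 min (adjusted p = 0.0284 with limma) and none passed at 10 min.

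Several lists of solid tissue markers were lower at 10 min along with the globins, connective tissue among them. All 10 tested of 12 markers were at least 2-fold lower than the controls at 10 min and outside their range, with a median of -1.65, and the medians at 30 and 60 min were -1.27 and -1.63. Their summed intensity was 27390 and 26050 in the controls, 7705 at 10 min, 10710 at 30 min and 8831 at 60 min. None passed at 10 or 30 min, and 9 fell at 60 min, among them Fbln1 with -2.29, the vimentin gene Vim with -2.16 and Col1a1 with -1.87 (adjusted p = 0.0281 for each with limma). At 60 min Col1a1 stood at 8.78 against 10.63 and 10.65 in the controls, while the adult globins differed from their control means by -0.47 (Hba-a1) to 0.03 (Hbb-b1). The difference between the courses was not tested, and the part of connective tissue in the globin values was not tested.

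Vessel markers were lower as well. Of 12 tested endothelial genes out of 16 on the array, 11 lay below the control mean at 10 min with a median of -0.57, and 6 fell at 60 min with a median of -0.99. The summed intensity of this list was 6802 and 5978 in the controls, 4449 at 10 min, 4252 at 30 min and 3327 at 60 min. The von Willebrand factor gene Vwf differed by -1.44 at 10 min and was at least 3.64-fold lower at 60 min, and Egfl7 (-1.83) and Tie1 (-1.32) fell at 60 min. The defining markers Cdh5 and Tek were not above background on any array. Monocyte and macrophage genes had medians of -0.50, -0.77 and -0.66, with a gap of -0.35 between the controls, and Fcer1g (-1.18) and Aif1 (-1.15) fell at 60 min. At 60 min 5 of the 8 tested monocyte and macrophage genes lay below the control mean, while Ccr2 differed by 0.68. Fcgr3a differed by 0.07 at 10 min and -1.02 at 60 min. The part of vessels and macrophages in the globin values was not tested.

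The summed intensity of 16 skeletal muscle genes was 55680 in control 1 and 55570 at 30 min, and 3376, 3584 and 7837 in control 2, at 10 min and at 60 min. All 15 tested were below the control mean at 10 min, with a median of -2.21. The adult globins differed between the controls by -0.22 to 0.03. The part of muscle and fat in the globin values was not tested. Adipocyte genes summed to 10540 and 9306 in the controls, 5408 at 10 min, 8444 at 30 min and 3032 at 60 min. All 10 tested were below the control mean at 10 min, with medians of -0.72, -0.12 and -1.49 at the 3 times, and 8 of 10 fell at 60 min, among them Scd with -2.64, Cfd with -2.54 and Fabp4 with -1.65. Acinar genes summed to between 245600 and 281700 on all arrays, with 1 of 12 tested passing at 60 min, Oprpn, which was 1.65 higher. The brightest acinar genes, Amy1 among them, stood near the top of the scale, where all arrays were matched to the same sorted values. The acinar sum could therefore hardly change and is no measure of acinar content. In whole glands, fewer cells of a type and less RNA per cell cannot be told apart.

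**Figure D4:**
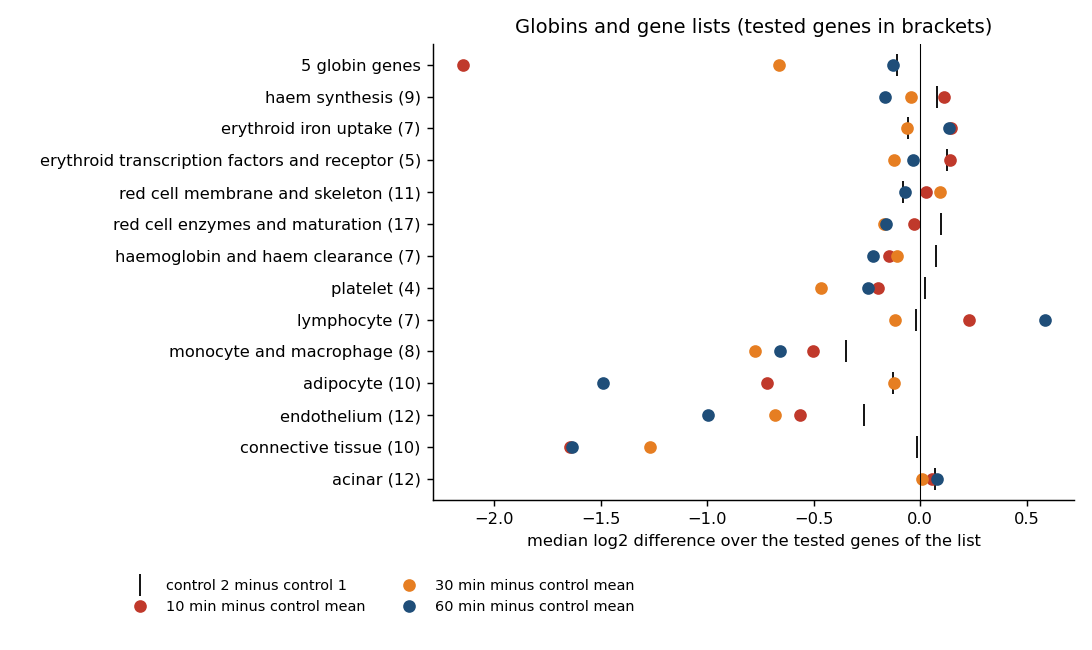
Median log2 difference from the control mean at 10 min (red), 30 min (orange) and 60 min (blue) for the 5 globin genes and 13 gene lists (tested genes in brackets), with a black tick at the median difference of control 2 minus control 1. The globins are at -2.15, -0.66 and -0.13, connective tissue at -1.65, -1.27 and -1.63, and the haem synthesis list at 0.11, -0.04 and -0.16. The other globin, neutrophil and skeletal muscle lists are not drawn. Skeletal muscle had a median of -2.21 at 10 min and of -4.90 between the controls.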

How the data were processed

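The authors deposited a linear intensity and a detection p-value for 22517 probes on each of 5 arrays, and processed values on a log2-like scale, per the file headers and the values. The intensity columns had nearly the same sorted values (median spread 0.133%), so they were already quantile-matched, with no background subtracted (lowest value 43.1). Neither the software nor the transform behind them was given in the sources used here, and the arrays' number limits precision.

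The neqc function of limma 3.58.1 (R 4.3.3) turned intensities into log2 values, by normexp background correction based on detection p-values, an offset of 16 and quantile normalization. Probes with a detection p-value under 0.01 on at least 1 array (10793) were fitted across all arrays with lmFit and eBayes, with 1 mean per group (1 residual and 3.88 prior degrees of freedom, prior SD 0.186) or 2 group means (3 residual). Two-sided p-values were adjusted (Benjamini-Hochberg) over all tested probes, with a threshold of 0.05. Each lone isoproterenol rat was thus assumed to vary like the controls. The fit was also run on simulated data in which all arrays varied alike, so that run could not check this assumption.

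The platform annotation named 13787 probes (8730 without a symbol), with 0 symbols updated through the rat reference table. For genes of lists, the probe with the highest mean was used. A gene not above background in a group has only a bound there: the brighter group's mean against the higher of the probe's own value and the lowest value above background on that array, given as "at least". The members and lists were chosen with earlier results of these data known. Named were every member, up to 4 tested genes of each red cell list with the largest 60 min difference and every one that passed, up to 3 of each list of another cell type, and the 10 probes nearest the adult globin course and 5 nearest its mirror, the Hbe1 course and the Alas2 course.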

Additional observations from a re-analysis of the deposited data

Results flagged for a closer look

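Of the listed genes, 7 stood at least 1 log2 unit below the control mean at 10 min and outside both controls, and at least 1 above it and outside both at 30 min. All are genes that skeletal muscle expresses. The 30 min gland exceeded the 10 min gland by 6.05 in Acta1, 5.97 in Ckm, 5.87 in Tnni2 and 5.48 in Actn3. The recorded values differed by 5.07 in Pvalb, 4.54 in Mb and 2.10 in Ank1, but these 3 were within background at 10 min, so the sizes are not measured. Set against the control mean, where 1 of 2 controls was above background, Pvalb was lower by at least 4.03-fold, Mb by at least 3.00-fold and Ank1 by at least 1.22-fold. The difference between the times was not tested, and in each of these genes control 1 stood near the 30 min gland and control 2 near the 10 min gland. None of the globin genes and not Alas2 met these criteria.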

How the results depend on the processing

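The 4 adult globins were also at least 2-fold lower than the controls and outside both at 10 min with an offset of 50, on uncorrected intensities, on the authors' values and with median scaling. The alternatives of filter and prior leave these differences unchanged by design, so they are no check on them. With either control left out too, Hbb lay between -2.75 and -2.53 and Hba-a1 between -1.80 and -1.69. Their median with Hbe1 at 10 min was -1.916 at an offset of 50, -1.829 on uncorrected intensities and -1.844 on the authors' values. Over the 3 isoproterenol rats together it ranged from -1.469 to -0.446 when 1 rat was left out, and the count of probes called ranged from 0 to 1 (1 without the 60 min rat). At 10 min, limma called 0 probes with no filter on dim probes, 1 with detection on 2 arrays and 13 with an intensity trend. At 30 min it called 3 with an offset of 50, 3 on the authors' values, 7 at a detection p-value under 0.05 and 8 with an intensity trend. With no filter it called 0 of 22517 probes at 60 min and 0 of 78 red cell list genes (5628 and 32 at an unadjusted p under 0.05), while 24.4% passed with the filter. The other alternatives called 12 to 16 red cell list genes, of which 10 to 13 were among the 13 named in the report. Signals near background, those of Hbe1 and Alas2 included, limit the size of their differences. Without control 2, the sign of Hbe1 at 10 min (0.307) and of Hbb-b1 at 60 min (-0.05) turned. No paired analysis was possible because each time has 1 rat, so the groups share fewer than 2 replicate numbers. Without 1 control, a single time against the other has no residual degrees of freedom and was given no test.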
